A study of Homo sapiens with 15 samples.

Results

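The genes described here encode the proteins of the mitochondrial ribosome and were chosen by symbol: every gene of the count table whose symbol is MRPL or MRPS followed by a number and at most 1 letter from A to C. The rule found 73 of 22447 genes, of which 46 are named for the large subunit (MRPL) and 27 for the small one (MRPS). All 73 passed the filter on low counts, so that every member was tested. MRPS18A and MRPS30 carry a small-subunit name but are known to sit in the large subunit.

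Mitochondria keep a ribosome of their own, which translates the few proteins encoded by mitochondrial DNA, all of them membrane subunits of the respiratory chain and the ATP synthase. Its RNAs come from the mitochondrial genome, whereas its proteins are encoded in the nucleus, made on cytosolic ribosomes and imported. Some of these proteins descend from the bacterial ribosome, and others were gained by mitochondria. Promoters of nuclear genes for mitochondrial proteins are known to be bound by NRF1, by the ETS-family factor GABP and by YY1.

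RNA-seq was made from U251 cells, an established human glioblastoma line labelled WT, in 5 groups of 3 libraries. The untreated control was collected at the same time as the 24 h groups, although its label reads 0 h, and the irradiated cells received 1 Gy or 6 Gy of ionizing radiation and were collected 6 h or 24 h later. A 6 h group therefore differs from the control in radiation and in time of harvest, and these cannot be told apart. No untreated cells were collected at 6 h. In a comparison of 24 h with 6 h after 1 dose, time since irradiation and time in culture therefore cannot be told apart either. Tests used the 13 libraries that the study's expression table lists, which leaves out control replicate III and 1 Gy 6 h replicate II, so that the control and 1 Gy 6 h groups entered with 2 libraries each and the other groups with 3. The control is shared by all comparisons against it.

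The 15 libraries held 8691338 to 11719631 counts, and the members took 0.496% to 0.615% of them. Values are given as CPM, counts scaled to a common library size adjusted by TMM. Of 10 glial and glioblastoma markers 9 passed the filter, and their summed level was 4002 to 4804 CPM per library, against 0.657 to 1.66 CPM for 5 blood markers, 4.06 to 11.8 CPM for 3 endothelial markers, 53.8 to 70.8 CPM for 5 neuronal markers and 133 to 174 CPM for 4 epithelial markers. Of the defining markers OLIG2, NEUROD1, HBB, PECAM1 and EPCAM were at 0 in all libraries. In bulk RNA, fewer cells of a kind and less RNA per cell cannot be told apart.

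The promoters of 65 of the 73 members were found in the RefSeq promoter table (GRCh38.p14), which spans 250 bases before to 50 bases after each start. They are shown because the factors that bind such promoters are themselves among the genes measured below. Exact matches were sought on both strands to GCGCANGCG (NRF1), CCGGAAGT (ETS) and AAGATGGCG (YY1), letter strings that do not contain one another. The ETS string was in 11 of the 65 (16.9%), against 4.14% of 35116 promoters, and the YY1 string in 13 (20%), against 1.75%. The NRF1 string was in 11 (16.9%), against 7.52% of all promoters. At least 1 of the 3 strings was in 30 members (46.2%), against 12.3% of all promoters. The sets are unlike: each member has 1 entry, whereas the 35116 are all entries, of genes expressed here or not. What part expression or base content has in the difference was not tested. The counts depend on the letters chosen: with a further C the NRF1 string was in 6 members (9.23%, against 5.78%), and with a further GC the YY1 string was in 10 (15.4%, against 0.849%). Among the 28 matched members that were lower at 24 h than at 6 h after 6 Gy (described below), the ETS string was in 6, the NRF1 string in 6 and the YY1 string in 4. Among the other 37 the numbers were 5, 5 and 9. A match is a run of letters and says nothing of binding.

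The 120 bases just before the start of 6 members follow, 5′ to 3′ on the strand of the gene, with exact matches in capitals. MRPL3 and MRPL47 hold the ETS string. MRPS9 holds the NRF1 string on the opposite strand, and MRPL17 holds it at 2 places, overlapping matches on both strands at the one place and a match on the gene's own strand at the other. MRPL36 holds the NRF1 and the YY1 string, each on the opposite strand, and MRPL54, which fell furthest from 6 h to 24 h after 6 Gy, holds none of the 3. The windows are chr3:131502972-131503091, chr3:179604639-179604758, chr2:105037949-105038068, chr11:6683341-6683460, chr5:1799838-1799957 and chr19:3762562-3762681 (GRCh38.p14), in the order of the lines. MRPS9 and MRPL54 lie on the plus strand and the others on the minus strand.
MRPL3: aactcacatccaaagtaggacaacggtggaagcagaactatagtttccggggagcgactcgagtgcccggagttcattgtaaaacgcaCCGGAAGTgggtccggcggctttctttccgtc
MRPL47: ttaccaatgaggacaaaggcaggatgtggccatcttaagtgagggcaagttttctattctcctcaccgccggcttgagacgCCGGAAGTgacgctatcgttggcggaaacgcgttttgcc
MRPS9: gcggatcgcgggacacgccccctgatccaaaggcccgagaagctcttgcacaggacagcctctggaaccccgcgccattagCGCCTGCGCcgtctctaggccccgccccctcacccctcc
MRPL17: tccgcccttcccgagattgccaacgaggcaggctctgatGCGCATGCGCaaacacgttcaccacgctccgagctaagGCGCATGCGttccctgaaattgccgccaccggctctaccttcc
MRPL36: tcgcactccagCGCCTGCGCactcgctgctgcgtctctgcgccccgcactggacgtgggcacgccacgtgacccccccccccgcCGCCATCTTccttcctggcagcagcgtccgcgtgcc
MRPL54: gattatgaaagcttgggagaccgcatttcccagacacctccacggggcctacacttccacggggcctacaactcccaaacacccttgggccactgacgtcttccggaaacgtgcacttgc

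The members are spread over 21 chromosomes. In hg19, the build of the counts, 10 of them overlap another gene, 9 on the other strand (MRPL9 with OAZ3 and MRPS12 with SARS2, for example) and MRPS24 on the same strand, with the readthrough gene URGCP-MRPS24. The sources used here do not say whether the counting used strand, so that reads of such genes cannot be told apart. Another 63 overlap none. For 21 members a gene on the opposite strand starts within 1 kb, and 1 such pair is within the list: MRPL46 (chr15:89002709-89010633) and MRPS11 (chr15:89010684-89021861) start 50 bases apart.

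In the untreated cells the members were expressed at a median of 69.3 CPM (range 2.49 to 232.6), against 34.0 CPM for all 12719 tested genes. Their transcripts are short, with a median length of 1218 nt against 3370 nt for the 11936 tested genes with a length. Per kb of that length, the median level of the members was 52.6 CPM, against 9.64 CPM for all tested genes, 105 CPM for 53 nuclear-encoded respiratory chain subunits and 515.7 CPM for 82 cytosolic ribosomal proteins. Members named for the large subunit had a median of 52.9 CPM per kb (n = 46) and those named for the small one 44.5 CPM per kb (n = 27).

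The highest levels in the control were those of MRPL51, a large-subunit protein found in mitochondria only, with 196 ± 2.31 CPM per kb (SD, n = 2), and of MRPL20, the counterpart of bacterial L20, with 179 ± 1.77 CPM per kb. MRPL37 followed with 152 ± 2.56 CPM per kb, and MRPS34 and MRPL33, at 144 ± 14.3 and 142 ± 6.52 CPM per kb, did not differ beyond their spread. At the other end stood MRPS24 with 3.73 ± 0.152 CPM per kb, MRPL42 with 5.70 ± 0.298, MRPL38 with 7.23 ± 1.24, MRPL53 with 8.22 ± 1.59 and MRPS33 with 8.37 ± 0.386 CPM per kb, the last 3 within their spread of each other. The low value of MRPL42 goes with a reference transcript of 15557 nt, since its unscaled level was 88.6 CPM. Reads of MRPS24 cannot be told apart from those of its readthrough gene.

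The summed level of the members was lowest 24 h after 6 Gy. It was 4828, 4898 and 4971 CPM in the 3 libraries of that group, against 5009, 5419 and 5601 CPM at 24 h after 1 Gy and 5227 and 5420 CPM in the control. At 6 h it was 5393, 5784 and 5627 CPM after 6 Gy and 5147 and 5781 CPM after 1 Gy. The 3 libraries of 6 Gy 24 h lay below every other library, and those of the other groups overlapped. This holds for the CPM scaled by TMM. As a share of all counts, the members took 0.505% in 6 Gy 24 h replicate III and 0.503% in 1 Gy 24 h replicate I, which overlap.

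**Figure D1:**
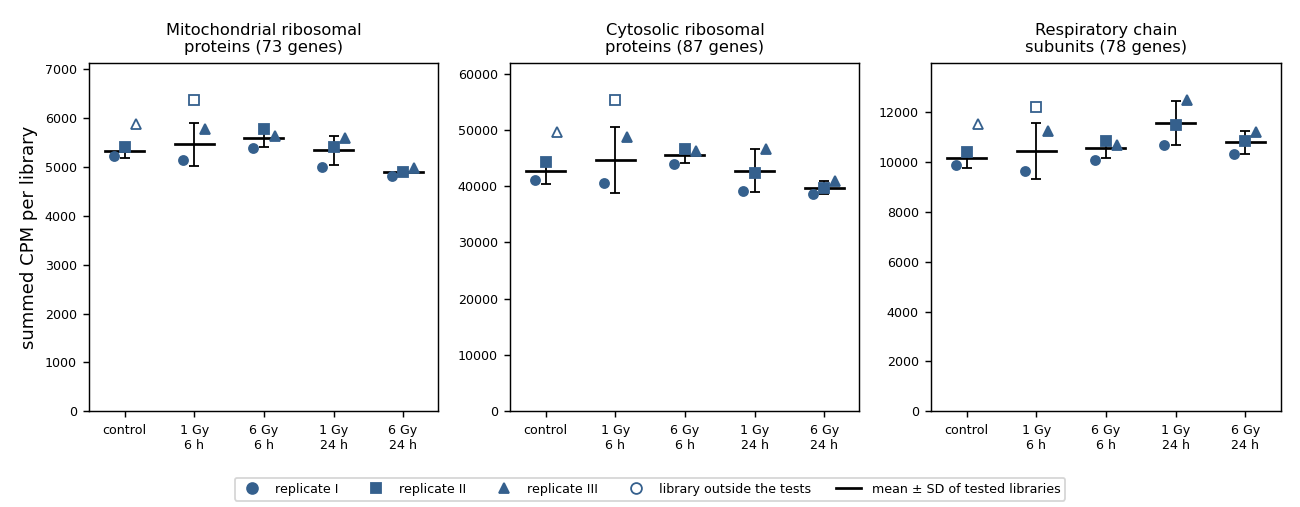
Summed CPM (y axis, from 0) in each library of the 5 groups (x axis) for mitochondrial ribosomal proteins, cytosolic ribosomal proteins and nuclear-encoded respiratory chain subunits. Each point is a library, open points are the libraries outside the tests, and bars give mean ± SD of the tested ones. In the left panel the 6 Gy 24 h libraries, at 4828 to 4971 CPM scaled by TMM, sit below all others.

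The left-out libraries had the highest sums of their groups, 5879 CPM in control replicate III and 6370 CPM in 1 Gy 6 h replicate II. Of the counts on the 11936 tested genes with a length, the share on genes shorter than 1000 nt was also the highest of its group in each. It was 6.80% and 7.56%, against 5.77% to 6.82% in the 13 tested libraries. In the 6 Gy 24 h group this share was 6.05% to 6.26%, and in the 6 Gy 6 h group 6.19% to 6.58%. Of the same counts, genes of over 60% GC took 14.1% in 6 Gy 24 h replicate I and 11.4% to 12.9% in the other libraries.

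The clearest change of the members was between 6 h and 24 h after 6 Gy. At Benjamini-Hochberg adjusted p below 0.05 over all tested genes (edgeR, quasi-likelihood), 32 of 73 members were lower at 24 h and 1 was higher. Among all tested genes 16.6% were lower and 17.9% higher by the same rule. The median log2 fold change of the members was -0.20, against 0.01 over all tested genes, and 66 of the 73 values were below 0. The changes were small, with 1 member past the study's fold threshold (absolute log2 fold change above 0.5), while 10.6% of all tested genes passed it. In 37 members every 24 h library lay below every 6 h library, and in 1 member above, against 22.3% and 23% of all tested genes. Without 6 Gy 6 h replicate II, 19 of the members were lower (13.3% of all tested genes), all of them among the 32, and with the correction for length and GC content 40 were, against 24.7% of all tested genes in that fit.

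Some markers of other cell types moved in the same comparison. Of the 8 tested markers of neurons, endothelium, epithelium and blood, 3 were higher at 24 h and 0 lower by edgeR. CDH5, a cadherin of endothelial cells, had 4.27, 3.94 and 4.06 CPM at 6 h and 8.72, 10.1 and 10.9 CPM at 24 h after 6 Gy (log2 fold change 1.27, adjusted p = 1.97e-06). The 24 h libraries were all above the 6 h ones. KRT8, an epithelial keratin, gave 0.37 (adjusted p = 0.00104), and SYP, a synaptic vesicle protein at 0.625 to 2.98 CPM in the 15 libraries, gave 1.01 (adjusted p = 0.0193). The 3 endothelial markers summed to 4.06 to 4.69 CPM in the 6 Gy 6 h libraries and 9.33 to 11.8 CPM in the 6 Gy 24 h ones, against 5.63 to 7.14 CPM in the control, 4.98 to 5.10 CPM at 6 h and 6.80 to 7.99 CPM at 24 h after 1 Gy. The 4 epithelial markers summed to 150 to 157 CPM at 6 h and 157 to 169 CPM at 24 h after 6 Gy, the 5 neuronal markers to 54.9 to 58.4 and 57.1 to 60.6 CPM, and the 5 blood markers to 0.657 to 0.834 and 0.793 to 1.62 CPM. PECAM1, EPCAM, NEUROD1 and HBB were at 0 in each of these libraries. Of the 9 tested glial markers 2 were higher and 1 lower, and their sum was 4035 to 4307 CPM at 6 h and 4002 to 4140 CPM at 24 h. The part of these markers in the result was not tested.

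MRPL54 (chr19:3762665-3767563, hg19), a large-subunit protein found in mitochondria only, was the member past the fold threshold. It had 33.8, 34.2 and 31.6 CPM at 6 h after 6 Gy and 24.2, 21.8 and 24.1 CPM at 24 h. The 24 h libraries were all below the 6 h ones. It fell by 0.50 on the log2 scale (SE 0.10, adjusted p = 5.34e-04 by edgeR). With library totals or upper-quartile scaling it stayed below adjusted p 0.05 but was no longer past the fold threshold, and with single libraries left out 0 members (without 6 Gy 6 h replicate II) to 2 (without 6 Gy 6 h replicate I) passed it.

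MRPL9 (chr1:151732119-151736392), the counterpart of a bacterial protein at the base of the L1 stalk, had 72.3, 75.1 and 73.8 CPM at 6 h and 56.3, 58.5 and 59.2 CPM at 24 h after 6 Gy. Its groups were far apart relative to their spread, and it fell by 0.35 on the log2 scale (SE 0.0721, adjusted p = 8.23e-04 by edgeR). MRPL15, the counterpart of bacterial L15, had 102, 107 and 105 CPM at 6 h and 81.3, 85.0 and 85.4 CPM at 24 h. Again no library of one time reached the other, and the fall was 0.32 on the log2 scale (SE 0.0674, adjusted p = 9.00e-04).

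MRPL39 (chr21:26957968-26979801), found in mitochondria only, had 53.3, 57.9 and 61.3 CPM at 6 h and 41.3, 47.5 and 40.5 CPM at 24 h after 6 Gy, groups that did not overlap (log2 fold change -0.42, SE 0.0877, adjusted p = 9.25e-04 by edgeR). MRPL3 (chr3:131181045-131221860), a core protein near the catalytic centre and the most abundant member by CPM, had 228, 241 and 240 CPM at 6 h and 184, 206 and 196 CPM at 24 h. It fell by 0.27 on the log2 scale (SE 0.0594, adjusted p = 0.00121 by edgeR), with all 24 h libraries below the 6 h ones.

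The falls were spread over the ribosome. Of members named for the large subunit 20 of 46 were lower and of those named for the small one 12 of 27, with medians of -0.19 and -0.23. Members with a bacterial counterpart were lower in 23 of 46 cases (median -0.23) and those without in 9 of 27 (median -0.16), a difference that was not tested. Small-subunit proteins that fell include MRPS15, MRPS2 and MRPS12, with log2 fold changes of -0.31, -0.34 and -0.36 (adjusted p = 0.00135, 0.00147 and 0.00221 by edgeR). MRPS12 and MRPL9 were among the 10 members that overlap another gene, and of the 63 that overlap none 30 were lower. Of the adjacent pair, MRPS11 fell by 0.28 on the log2 scale (SE 0.0829, adjusted p = 0.0122), and MRPL46, at about 10 CPM in the control, gave -0.16 (SE 0.143, adjusted p = 0.424).

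MRPS14 (chr1:174982094-174992591), the counterpart of bacterial S14 in the head of the small subunit, went the other way. It had 26.6, 24.6 and 26.4 CPM at 6 h and 31.6, 34.1 and 32.7 CPM at 24 h after 6 Gy. All 24 h libraries were above the 6 h ones, and it rose by 0.34 on the log2 scale (SE 0.106, adjusted p = 0.0155 by edgeR). Without 6 Gy 6 h replicate II or 6 Gy 24 h replicate II the adjusted p was 0.0612 and 0.0529. The other 6 members with values above 0 were MRPL33, MRPL38, MRPL36, MRPS25, MRPL14 and MRPL40, with log2 fold changes of 0.02 to 0.13 and adjusted p of 0.308 or more.

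**Figure D2:**
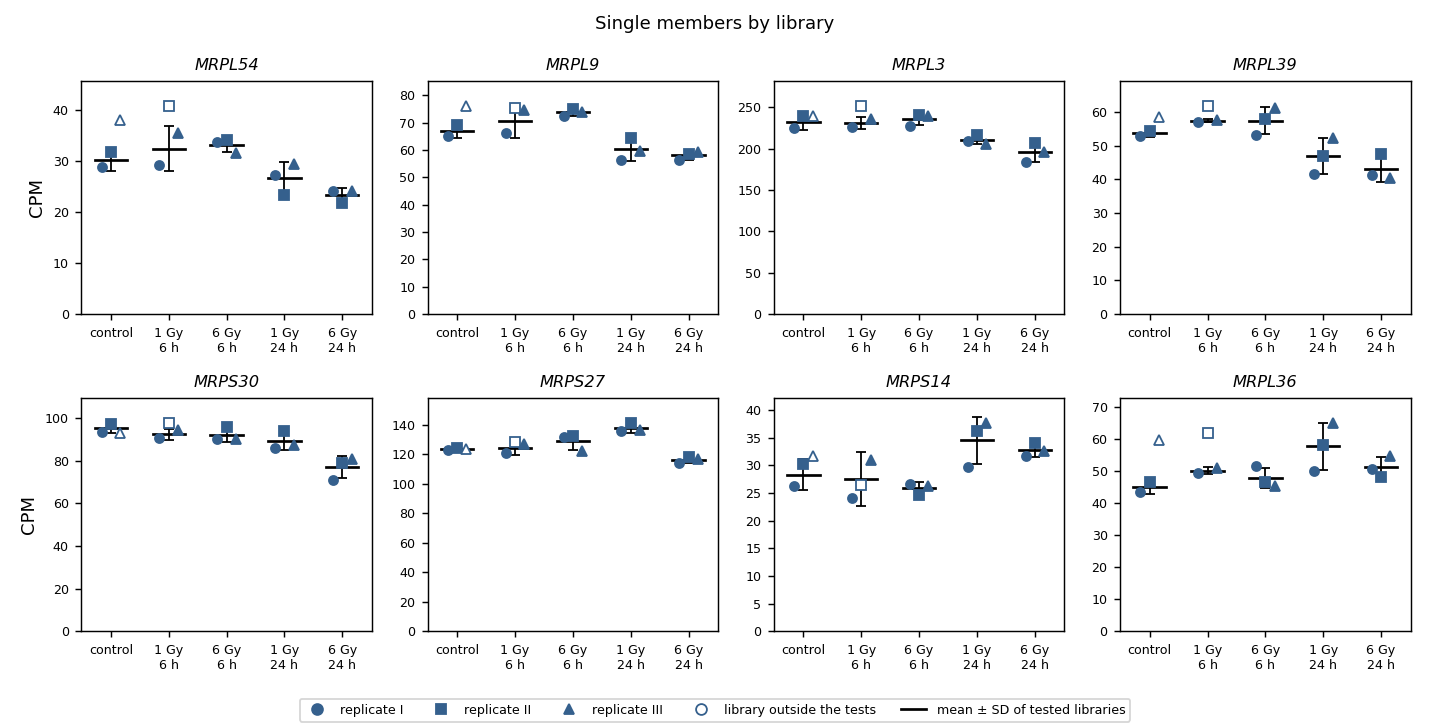
CPM (y axis, from 0) of 8 members in each library of the 5 groups (x axis). Each point is a library, open points are the libraries outside the tests, and bars give mean ± SD of the tested ones. MRPL54, MRPL9, MRPL3 and MRPL39 are lower at 24 h than at 6 h after 6 Gy without overlap, MRPS14 is higher, and MRPS27 is high after 1 Gy and low after 6 Gy at 24 h.

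After 1 Gy the same interval moved few members. At adjusted p below 0.05 by edgeR 1 was lower and 1 higher, against 7.29% and 8.59% of all tested genes, and the median log2 fold change was -0.05. MRPL33, the counterpart of a small bacterial protein of the large subunit, had 61.4 and 73.5 CPM at 6 h and 83.3, 92.4 and 91.1 CPM at 24 h. The groups did not overlap, and it rose by 0.40 on the log2 scale (SE 0.106, adjusted p = 0.0129). With all 15 libraries, where 1 Gy 6 h replicate II had 86.7 CPM, the value was 0.26 with an adjusted p of 0.101, and without 1 Gy 6 h replicate I it was 0.27 with an adjusted p of 0.208.

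MRPL39 had 57.1 and 57.8 CPM at 6 h and 41.8, 46.8 and 52.3 CPM at 24 h after 1 Gy, lower at 24 h in every library. It fell by 0.30 on the log2 scale (SE 0.0968, adjusted p = 0.0413 by edgeR), and the adjusted p was between 0.0531 and 0.168 without any 1 of control replicate I, 1 Gy 6 h replicates I and III and 1 Gy 24 h replicates I and II. The count of lower members was 7 with all 15 libraries and 14 with the correction for length and GC content, against 9.52% and 14.4% of all tested genes in those fits. No member passed the fold threshold, against 5.48% of all tested genes, though without 1 Gy 6 h replicate III 2 did. The median turned to 0.04 without 1 Gy 6 h replicate III, so that its sign rests on that library.

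Set side by side, 44 of the 73 members had log2 fold changes below 0 at both doses, and in 67 the value after 6 Gy was below the value after 1 Gy. The difference itself, the interaction of dose and time, had a median of -0.16 over the members and -0.01 over all tested genes. By edgeR 0 members passed adjusted p 0.05 for it, 0.0629% of all tested genes were lower and 0.322% higher, DESeq2 gave 0 as well, and at unadjusted p below 0.05 there were 10 members lower and 0 higher, against 4.93% and 6.27% of all tested genes. With all 15 libraries the median was -0.08, and 54 of 73 were below 0. With the correction for length and GC content the median was -0.09 and 1 member passed as lower (0.393% of all tested genes), and with the correction and a block for the replicate number 4 did (2.3%). The lack of a call in the other fits does not show that the changes were equal.

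**Figure D3:**
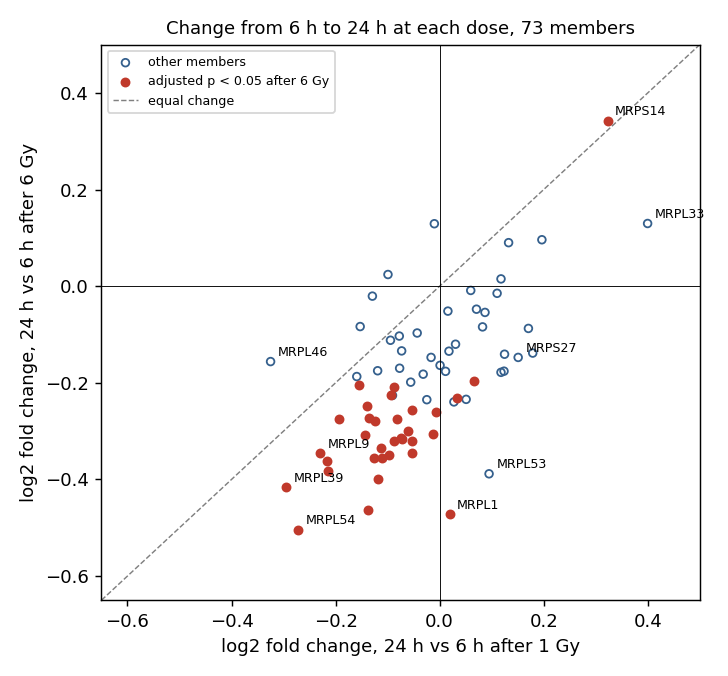
Log2 fold change from 6 h to 24 h after 1 Gy (x axis) and after 6 Gy (y axis) for each of the 73 members. Filled points passed adjusted p 0.05 after 6 Gy, and the dashed line marks equal change. The points of 67 members lie below the line, and MRPS14 and MRPL33 lie at the upper right.

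Against the untreated control, 10 of 73 members were lower and 0 higher 24 h after 6 Gy at adjusted p below 0.05 by edgeR, while 11.5% of all tested genes were lower and 12.1% higher. The 10 are 13.7% of the members, near the share of lower genes. By unadjusted p below 0.05 there were 24 lower and 0 higher members, against 17.5% and 18.1% of all tested genes, and by DESeq2 8 lower and 0 higher, with 6.88% of all tested genes lower. The median log2 fold change was -0.12, against 0.00 over all tested genes, and 58 of 73 values were below 0. In 35 members the irradiated libraries were all below the control ones and in 4 all above, against 25.8% and 25.5% of all tested genes. No member passed the fold threshold, which 7.77% of all tested genes did. Of the tested markers of other cell types CDH5 and KRT8 were higher in the same comparison (log2 fold changes 0.65 and 0.51, adjusted p = 0.00452 and 3.13e-04 by edgeR) and MAP2, a neuronal marker, was lower (-0.38, adjusted p = 0.00300). The summed levels were 133 to 151 CPM in the control for the epithelial markers, 67.1 to 70.8 CPM for the neuronal and 0.746 to 1.66 CPM for the blood ones, beside the values given above, and their part in the result was not tested.

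The count depended on the libraries and the scaling. Without control replicate II it was 0 (4.98% of all tested genes lower) and without control replicate I it was 5 (6.47%). Without 6 Gy 24 h replicate I it was 6 (9.83%). With all 15 libraries it was 23, against 13% of all tested genes, and these included all of the 10. With the correction for length and GC content it was 28 (18.7% of all tested genes), also including the 10, with library totals 5 (8.46%) and with upper-quartile scaling 6 (9.03%). With a block for the replicate number it was 28, against 16.2%, and with no filter on low counts 15, against 8.37%.

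MRPS30 (chr5:44809027-44815618), one of the members that sit in the large subunit under a small-subunit name, had 93.7 and 97.3 CPM in the control and 71.1, 79.0 and 81.0 CPM at 24 h after 6 Gy. The control replicate outside the tests had 93.1 CPM, and no irradiated library reached the control. MRPS30 fell by 0.31 on the log2 scale (SE 0.0754, adjusted p = 0.00485 by edgeR), and without control replicate II the adjusted p was 0.0764. MRPS18A, the other such member, had a log2 fold change of -0.05 (adjusted p = 0.838).

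MRPL3 had 225 and 240 CPM in the control and 184, 206 and 196 CPM at 24 h after 6 Gy, which did not overlap (log2 fold change -0.25, SE 0.0660, adjusted p = 0.00823 by edgeR, and 0.141 without control replicate II). MRPL47 (chr3:179306255-179322434), the counterpart of bacterial L29, shares its start region with NDUFB5, a subunit of complex I, which starts 140 bases away on the other strand. It had 91.1 and 101 CPM in the control and 71.3, 80.4 and 80.3 CPM at 24 h, again without overlap. It fell by 0.31 on the log2 scale (SE 0.0920, adjusted p = 0.0175), and the adjusted p was 0.223 without control replicate II and 0.0615 without 6 Gy 24 h replicate I.

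The other 7 members that fell against the control were MRPL54, MRPL39, MRPL15, MRPL22, MRPS9, MRPS10 and MRPL19, by 0.21 to 0.38 on the log2 scale. All 10 were also among the 32 that were lower at 24 h than at 6 h after 6 Gy, comparisons that share the 6 Gy 24 h libraries. The value furthest from 0 in this comparison was that of MRPL53, at -0.60, which did not pass the test (SE 0.228, adjusted p = 0.0601 by edgeR). This gene had 3.52 and 4.63 CPM in the control and 2.43, 2.58 and 3.08 CPM at 24 h, so that its error was large. Over the 5 groups, the mean of 52 of the 73 members was lowest at 6 Gy 24 h.

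**Figure D4:**
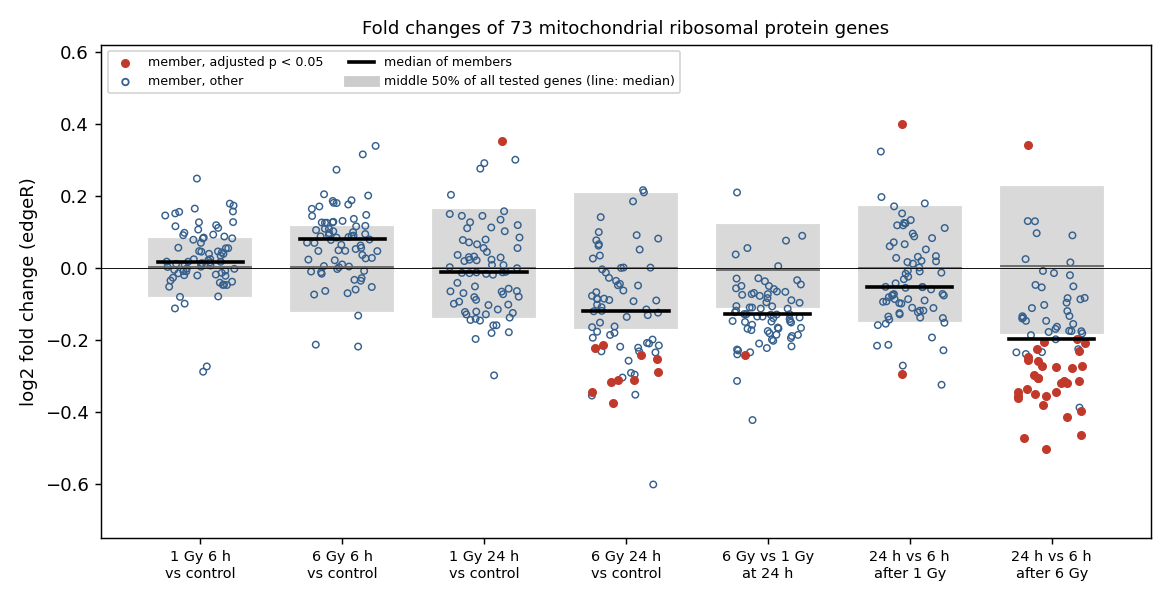
Log2 fold changes (y axis) of the 73 members in 7 comparisons (x axis). Filled points passed adjusted p 0.05, black bars give the median of the members, and grey boxes the middle 50% of all tested genes with their median. The members' median is -0.20 for 24 h against 6 h after 6 Gy and -0.12 for 6 Gy 24 h against the control.

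At 24 h after 1 Gy, 1 member was higher and 0 lower than in the control at adjusted p below 0.05 by edgeR, against 6.71% and 5.39% of all tested genes. At unadjusted p below 0.05, 6 members were higher and 1 lower, against 13.9% and 12.9% of all tested genes, and DESeq2 gave 1 higher and 0 lower. The median was -0.01, but 0.01 without control replicate II or with upper-quartile scaling and 0.04 without 1 Gy 24 h replicate I. No member passed the fold threshold, which 4.42% of all tested genes did. MRPL36 (chr5:1798499-1799956), the counterpart of bacterial L36, one of the smallest ribosomal proteins, had 43.4 and 46.5 CPM in the control and 50.1, 58.0 and 64.9 CPM after irradiation. The groups did not overlap, and it rose by 0.35 on the log2 scale (SE 0.10, adjusted p = 0.0230). The control replicate outside the tests had 59.6 CPM, and with all 15 libraries the value was 0.20 with an adjusted p of 0.285. The adjusted p was between 0.0588 and 0.204 without either control replicate or without 1 Gy 24 h replicate II or III. With the correction for length and GC content 8 members were lower (11.8% of all tested genes) and 0 higher.

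The doses were compared directly at 24 h. After 6 Gy 1 member was lower than after 1 Gy and 0 were higher at adjusted p below 0.05 by edgeR, against 2.06% and 1.6% of all tested genes, with DESeq2 giving the same counts, and 12 lower and 0 higher at unadjusted p below 0.05, against 9.65% and 9.37%. The median log2 fold change was -0.13, against -0.01 over all tested genes, and 67 of 73 values were below 0. In 11 members every 6 Gy library was below every 1 Gy library and in 0 above, against 11.6% and 10.6% of all tested genes. No member passed the fold threshold, against 0.44% of all tested genes. With the correction for length and GC content the median was -0.08, 60 values were below 0 and 2 members passed as lower (3.44% of all tested genes). With the replicate block 11 were lower, against 6.75%.

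The member that passed was MRPS27 (chr5:71515236-71616084), a small-subunit protein with pentatricopeptide repeats, a kind of repeat that binds RNA. It had 135, 141 and 136 CPM after 1 Gy and 114, 118 and 117 CPM after 6 Gy, with 123 and 124 CPM in the control. Every 1 Gy library lay above and every 6 Gy library below the 2 tested control libraries. The level after 6 Gy was lower by a log2 fold change of -0.24 (SE 0.0593, adjusted p = 0.0257). The adjusted p was between 0.0544 and 0.133 without 1 Gy 24 h replicate II or III or 6 Gy 24 h replicate I or III, 0.0503 with library totals and 0.0752 with only the compared groups fitted.

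At 6 h no member passed adjusted p 0.05 in any comparison by edgeR, nor by DESeq2, though 1 was higher after 6 Gy with no filter on low counts, with only the compared groups fitted or with the replicate block and the length and GC correction together. After 1 Gy the median against the control was 0.02, with 1 member higher and 0 lower at unadjusted p below 0.05, against 1.31% and 1.8% of all tested genes. By adjusted p, 0% of all tested genes were higher or lower. After 6 Gy the median was 0.08 and 57 of 73 values were above 0, with 5 members higher and 0 lower at unadjusted p below 0.05, against 6.35% and 8.96% of all tested genes. By adjusted p, 0.841% of all tested genes were higher and 2.04% lower. This median was 0.03 without control replicate I or with all 15 libraries, 0.04 without 6 Gy 6 h replicate II and 0.05 with the correction for length and GC content. After 1 Gy all 6 h libraries were above the control ones in 10 members and below in 1, against 14.9% and 15.9% of all tested genes. In 20 members all 6 Gy 6 h libraries were above the control ones and in 0 below, against 17.4% and 18.8% of all tested genes. The lowest adjusted p was that of MRPS26, a small-subunit protein, at 0.113 with a log2 fold change of 0.32 (SE 0.102). Between the doses at 6 h the median was 0.04, with 1 member higher and 0 lower at unadjusted p below 0.05, against 2.88% and 4.54% of all tested genes. By adjusted p, 0.0943% and 0.959% of all tested genes were higher and lower. The fold threshold was passed by 0 members at 6 h, against 0%, 1.07% and 0.582% of all tested genes after 1 Gy, after 6 Gy and between the doses. The median after 1 Gy at 6 h was -0.05 without 1 Gy 6 h replicate III and -0.01 without control replicate I, and that between the doses was -0.03 without 1 Gy 6 h replicate I or with all 15 libraries.

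Genes that work with the mitochondrial ribosome were taken from lists chosen, like the members, with earlier results known. Of 6 further mitochondrial ribosomal proteins under other symbols, 2 were lower and 0 higher at 24 h than at 6 h after 6 Gy. The shares over all tested genes were 16.6% and 17.9%. Alternative fits are given for the members only. ICT1, which rescues stalled mitochondrial ribosomes and is part of the large subunit, had 58.2, 64.6 and 61.2 CPM at 6 h and 44.1, 40.5 and 46.5 CPM at 24 h. The groups were well apart, and it fell by 0.49 on the log2 scale (SE 0.0790, adjusted p = 6.38e-05 by edgeR). GADD45GIP1 fell by 0.29 (SE 0.0944, adjusted p = 0.0191).

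Of 22 tested assembly factors, which modify the ribosomal RNA and help to join the proteins, 11 were lower and 0 higher in the same comparison (median log2 fold change -0.20). Over all tested genes these shares were 16.6% and 17.9%. MPV17L2, which is needed for assembly of the subunits, had 34.3, 34.0 and 35.9 CPM at 6 h and 26.1, 23.3 and 22.6 CPM at 24 h after 6 Gy. It was past the fold threshold in the time comparison at both doses, with log2 fold changes of -0.53 after 6 Gy (SE 0.0877, adjusted p = 7.58e-05 by edgeR) and -0.55 after 1 Gy (SE 0.0978, adjusted p = 4.80e-04). FASTKD2, an RNA-binding protein of the same process, fell by 0.45 from 6 h to 24 h after 6 Gy (SE 0.0763) and by 0.50 against the control at 24 h (SE 0.0840), each on the log2 scale (adjusted p = 1.15e-04 and 2.25e-04).

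TFB1M, which methylates the small ribosomal RNA, differed between the doses at 24 h. It was lower after 6 Gy than after 1 Gy (log2 fold change -0.46, SE 0.101, adjusted p = 0.0140 by edgeR) and than in the control (-0.42, SE 0.113, adjusted p = 0.01). After 1 Gy it was higher at 24 h than at 6 h (0.35, SE 0.113, adjusted p = 0.0400). It had 17.0 and 16.5 CPM at 6 h and 21.1, 22.4 and 20.5 CPM at 24 h after 1 Gy. The left-out 1 Gy 6 h replicate II had 21.1 CPM. The interaction of dose and time did not pass (-0.50, SE 0.154, adjusted p = 0.206 by edgeR).

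The factors that run mitochondrial translation had 7 of 17 members lower and 0 higher at 24 h than at 6 h after 6 Gy, the mitochondrial tRNA synthetases 5 of 17 lower and 0 higher, and the genes that copy and express mitochondrial DNA 5 of 10 lower and 0 higher. Over all tested genes 16.6% were lower and 17.9% higher. MRRF, the factor that recycles mitochondrial ribosomes, fell by 0.41 on the log2 scale (SE 0.0798, adjusted p = 4.43e-04 by edgeR), and MTFMT, which makes the initiator formylmethionyl-tRNA, by 0.42 (SE 0.0929, adjusted p = 0.00144). The synthetases that fell with the lowest adjusted p were EARS2, AARS2 and LARS2, with log2 fold changes of -0.37, -0.35 and -0.33. PNPT1, which degrades and imports RNA in mitochondria, had 109, 122 and 122 CPM at 6 h and 79.9, 87 and 77.3 CPM at 24 h, and it fell by 0.53 on the log2 scale (SE 0.0690, adjusted p = 5.49e-06). Against the control, it was also lower at 24 h after 6 Gy (log2 fold change -0.55, adjusted p = 2.20e-05) and after 1 Gy (-0.37, adjusted p = 0.00244).

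**Figure D5:**
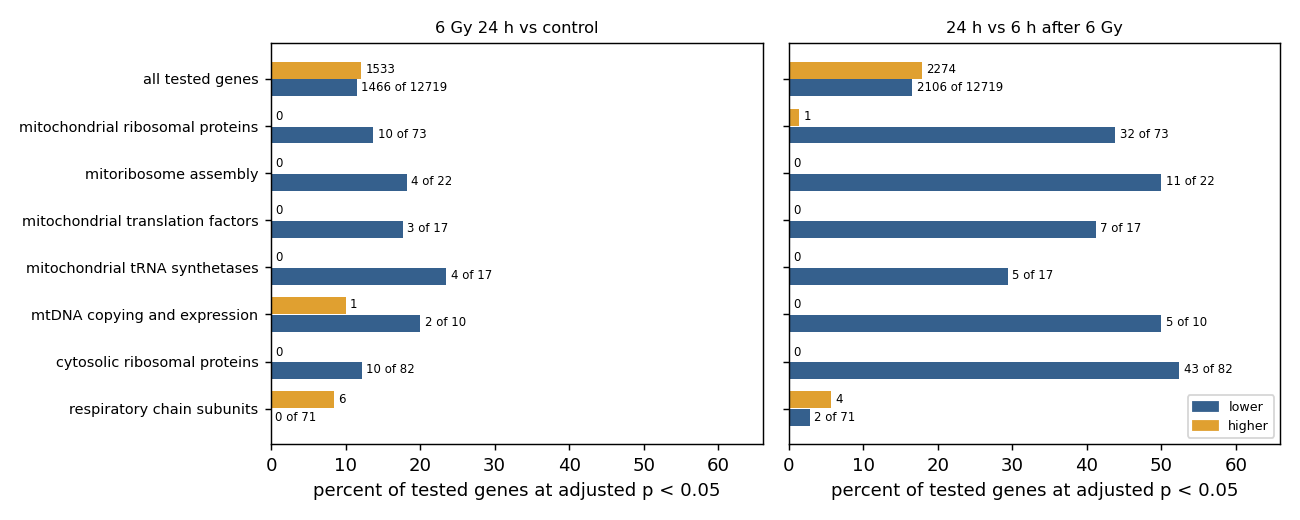
Percent of the tested genes of each list (x axis) that were lower or higher at adjusted p below 0.05, for 6 Gy 24 h against the control (left) and 24 h against 6 h after 6 Gy (right), with the counts beside the bars. In the right panel 32 of 73 mitochondrial ribosomal proteins and 43 of 82 cytosolic ones were lower, against 2 of 71 respiratory chain subunits and 16.6% of all tested genes.

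Of 10 tested regulators of mitochondrial gene expression, 3 were lower 24 h after 6 Gy than in the control and 1 higher at adjusted p below 0.05 by edgeR, namely NRF1, GABPB1 and MYC, and the coactivator PPARGC1B (log2 fold change 0.48, SE 0.161, adjusted p = 0.0340). Over all tested genes 11.5% were lower and 12.1% higher in this comparison. Between 6 h and 24 h after 6 Gy 1 of the 10 was lower (GABPB1) and 2 were higher, against 16.6% and 17.9% of all tested genes. NRF1 and MYC did not pass there. At 6 h after 6 Gy the regulators had a median log2 fold change of -0.22 against the control, where the members had 0.08. By adjusted p 1 regulator was lower and 0 higher at that time, against 2.04% and 0.841% of all tested genes. MYC, a driver of growth genes, fell by 0.36 on the log2 scale (SE 0.0760, adjusted p = 0.00174). GABPA, the DNA-binding subunit of GABP, gave -0.26 (adjusted p = 0.0550) and YY1 -0.08 (adjusted p = 0.422). NRF1 had 32.6 and 31.3 CPM in the control and 20.2, 22.0 and 24.0 CPM at 24 h after 6 Gy, without overlap. It fell by 0.53 on the log2 scale (SE 0.105, adjusted p = 9.02e-04 by edgeR), and it was also lower than at 24 h after 1 Gy (-0.34, SE 0.0961, adjusted p = 0.0496). GABPB1, a subunit of GABP, had 50.2 and 53.0 CPM in the control, 51.2, 53.3 and 54.5 CPM at 6 h and 40.0, 39.6 and 41.6 CPM at 24 h after 6 Gy.

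The 6 Gy 24 h libraries of GABPB1 were below those of the control and of 6 h after 6 Gy. Its log2 fold change was -0.36 against the control (SE 0.0779, adjusted p = 0.00223 by edgeR), -0.39 against 6 h after 6 Gy (SE 0.0702, adjusted p = 1.87e-04) and -0.38 against 1 Gy at 24 h (SE 0.0701, adjusted p = 0.00446). PPARGC1A, a coactivator of mitochondrial biogenesis, moved otherwise: it had 30.4 and 32.6 CPM in the control, 25.8, 22.8 and 22.8 CPM at 6 h and 32.5, 34.9 and 37.1 CPM at 24 h after 6 Gy. It was lower than the control at 6 h (log2 fold change -0.40, adjusted p = 0.0351) and rose from 6 h to 24 h by 0.55 on the log2 scale (SE 0.0924, adjusted p = 1.01e-04). Its relative PPARGC1B rose by 0.50 over the same interval (SE 0.144, adjusted p = 0.0101).

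The cytosolic ribosomal proteins gave values close to those of the members. Between 6 h and 24 h after 6 Gy 43 of 82 were lower and 0 higher, with a median log2 fold change of -0.20, and against the control at 24 h after 6 Gy 10 were lower and 0 higher, with a median of -0.11. Over all tested genes 16.6% were lower and 17.9% higher with time. Against the control these shares were 11.5% and 12.1%, so that the 10 of 82 (12.2%) were near the share of lower genes. Their summed level ranged from 38614 CPM in 6 Gy 24 h replicate I to 55296 CPM in 1 Gy 6 h replicate II, the libraries that were also lowest and highest for the members. The nuclear-encoded respiratory chain subunits, which join the products of mitochondrial translation, did otherwise with time and against the control at 24 h. Between 6 h and 24 h after 6 Gy 2 of 71 were lower and 4 higher (median 0.02). At 24 h after 6 Gy 0 were lower and 6 higher than the control (median 0.07). At 24 h after 1 Gy 8 of them were higher than in the control and 0 lower (median 0.16), against 6.71% and 5.39% of all tested genes. Between the doses they went the same way as the members. At 24 h 64 of the 71 values were below 0 for 6 Gy against 1 Gy (median -0.08). For the interaction of dose and time 63 were (median -0.11). By adjusted p 0 of the 71 passed in either comparison. The medians of the members were -0.13 and -0.16, and those of all tested genes -0.01 and -0.01. Of the 82 cytosolic ribosomal proteins 77 were below 0 for 6 Gy against 1 Gy at 24 h (median -0.12) and 78 for the interaction (median -0.14). By adjusted p 3 of these were lower and 0 higher between the doses at 24 h, against 2.06% and 1.6% of all tested genes. For the interaction 0 passed. The differences between these lists were not tested.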

How the data were processed

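Per the labels, poly(A) RNA of U251 cells was sequenced, and the authors deposited raw read counts per gene, made on hg19 with TopHat and HTSeq (versions not given in the sources used here). The strand setting is not given either. A table of the authors' own comparisons (fold changes, p-values, calls, scaled values) was not used. The tests used edgeR 4.0.16 under R 4.3.3, with filterByExpr (minimum count 10, total 15), TMM scaling, 1 quasi-likelihood fit over 5 groups and 13 libraries (8 residual degrees of freedom) and Benjamini-Hochberg adjustment over 12719 genes. The study's table omits the other 2 libraries, and its text gives no reason. SE is the absolute log2 fold change divided by the root of F. Lengths are those of GENCODE canonical transcripts. DESeq2 1.42.0, other scalings and filters, all 15 libraries, a replicate block and single libraries left out were alternatives, and the correction for length and GC content was added after seeing the data. The fit was tested on simulated data.

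The members and all lists were chosen with earlier results of these data known. Members were named by a rule: calls, the 3 lowest adjusted p in each direction of a comparison, and the 5 highest and lowest levels per kb. MRPS2, MRPS10, MRPS11, MRPS12, MRPS15, MRPL19, MRPL22 and others given by count were named after their values were seen. The study calls the libraries independent experiments, and p-values measure the spread between them only. Same-numbered libraries deviated together (r above 0.1) in 15 of 30 pairs (median 0.107, range -0.162 to 0.4) and differently numbered ones in 4 of 60 (median -0.0559). Not every same-numbered pair was above 0.1, and the main tests do not use the numbers. This does not show that same-numbered libraries are unrelated, and counts with a replicate block are given below.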

Additional observations from a re-analysis of the deposited data

Results flagged for a closer look

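MRPS27 was marked because its effects differed between the doses at 24 h. It passed the direct test of 6 Gy against 1 Gy (log2 fold change -0.24, adjusted p = 0.0257 by edgeR). All 1 Gy libraries also lay above and all 6 Gy libraries below the 2 tested control ones. The share of all tested genes with this pattern was not counted. The log2 fold change was -0.243 to 3 decimals. The call was lost without any 1 of 4 libraries, as given above.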

How the results depend on the processing

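Depth limits the members of a few CPM, such as MRPL53 and MRPS24, and with 2 or 3 libraries a group small changes pass the test only where the spread is small. With no fold threshold, the counts of members past adjusted p 0.05 were 1 (1 Gy 24 h against control), 10 (6 Gy 24 h against control), 1 (doses at 24 h), 2 (time after 1 Gy) and 33 (time after 6 Gy), in place of 0, 0, 0, 0 and 1 past both thresholds. All counts below are at adjusted p 0.05 unless the fold threshold is named, and the cause of the differences between settings was not tested. With all 15 libraries, 23 members were lower at 6 Gy 24 h than in the control in place of 10, 7 were lower with time after 1 Gy in place of 1 (median -0.125 in place of -0.054), 0 were higher at 1 Gy 24 h in place of 1, and the interaction's median was -0.0819 in place of -0.155. With library totals or the upper quartile, 5 or 6 were lower at 6 Gy 24 h, and 0 passed both thresholds with time after 6 Gy. Library totals also gave 0 lower between the doses at 24 h and 2 higher with time after 1 Gy. The upper quartile also gave 2 higher at 1 Gy 24 h and 0 lower with time after 1 Gy. With no filter, 15 were lower at 6 Gy 24 h (9 of the 10 among them), and 2 were higher at 1 Gy 24 h, 1 at 6 Gy 6 h and 2 with time after 1 Gy. With only the compared groups fitted, 2 were higher at 1 Gy 24 h, 1 at 6 Gy 6 h, and 0 lower between the doses at 24 h and with time after 1 Gy. With DESeq2, 0 were lower with time after 1 Gy.

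The main tests do not use the replicate numbers, although same-numbered libraries deviated together more often than others. With the replicate block, 28 were lower at 6 Gy 24 h (16.2% of all tested genes), 11 between the doses at 24 h (6.75%), 4 with time after 1 Gy (11.2%, 2 higher) and 1 at 1 Gy 24 h (3 higher), and with the block on all 15 libraries 29 (16.7%), 5 (3.85%), 14 (13.3%, 2 higher) and 4 (9.55%), with medians of -0.124 for time after 1 Gy and -0.0813 for the interaction. With the correction for length and GC content, 28 were lower and 1 higher at 6 Gy 24 h (2 past both thresholds), 8 lower and 0 higher at 1 Gy 24 h (median -0.0854 in place of -0.013), 14 lower with time after 1 Gy, 2 lower between the doses at 24 h and 1 lower for the interaction. With the correction and the block together, the lower counts were 36 (2 past both thresholds), 16 (2 higher, median -0.0903), 20 (2 higher), 8 and 4 (median -0.083), and 1 was higher at 6 Gy 6 h.

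With single libraries left out, 0 to 13 were lower at 6 Gy 24 h, 0 to 4 higher at 1 Gy 24 h, 0 to 1 lower between the doses at 24 h, 0 to 2 lower and 0 to 3 higher with time after 1 Gy (0 to 2 past both thresholds), and 19 to 36 lower and 0 to 2 higher with time after 6 Gy (0 to 2 past both thresholds). The medians ranged from -0.0538 to 0.118 (1 Gy 6 h), -0.0507 to 0.0366 (1 Gy 24 h), 0.0321 to 0.108 (6 Gy 6 h), -0.0346 to 0.137 (doses at 6 h), -0.132 to 0.0439 (time after 1 Gy) and -0.25 to -0.0889 (interaction), and the sign turned without 1 Gy 6 h replicate III (1 Gy 6 h, time after 1 Gy), control replicate I (1 Gy 6 h), control replicate II or 1 Gy 24 h replicate I (1 Gy 24 h) or 1 Gy 6 h replicate I (doses at 6 h). It also turned with the upper quartile (1 Gy 24 h, 0.0078) and with all 15 libraries (doses at 6 h, -0.0312, and -0.0315 with the block). The median for time after 6 Gy stayed below 0 in every setting run. In that comparison 26 members were lower with all 15 libraries (15.2% of all tested genes), in place of 32, and 26 with library totals (13.3%). The replicate block gave 42 (21.3%), and 37 on all 15 libraries (18.9%). The correction for length and GC content gave 40 (24.7%), and 46 together with the block (28.4%).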
